A study of Rattus norvegicus with 8 samples.

Results

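MicroRNA levels in C6 cells, a rat glioblastoma line, were compared between cells given clozapine at 25 µg/ml for 5 days and untreated cells kept for the same 5 days, with 2 arrays in each group. The members described here are the miRNAs that the scanner software called detected on both arrays of either group, 238 of the 719 miRNAs on the array. Both groups are the same line, obtained from a cell bank and grown with horse and foetal bovine serum, and the labels name no vehicle for the untreated cells. Clozapine was added to the medium daily. The series also holds 2 arrays each of cells given haloperidol (2 µg/ml) or risperidone (4 µg/ml), which enter here only where clozapine is set against them. The submitters call the arrays of a group biological repeats of the experiment. A single line in 2 repeats limits what the comparison can say of glia in general.

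A miRNA is a short RNA cut from a hairpin precursor by the nucleases Drosha and Dicer and loaded into an Argonaute protein. It pairs with messenger RNAs mainly through its seed, the bases 2 to 8 from its 5′ end, and lowers their translation and stability. One arm of the hairpin usually accumulates far above the other. In glial tumours miR-21 is known to favour growth, while let-7 miRNAs hold down Ras and Hmga2, which drive growth. Clozapine is an antipsychotic that blocks serotonin, dopamine and several other receptors.

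The sequences below are those on which the comparison turns, with the seed in capitals. They are RefSeq mature sequences of the rat assembly GRCr8, matched by name for 209 of the 238 members. The first set holds 5 miRNAs whose levels were higher on both clozapine arrays than on both control arrays, with the second arm of miR-338.
miR-338-3p: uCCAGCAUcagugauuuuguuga
miR-338-5p: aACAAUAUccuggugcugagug
miR-290: uCUCAAACuaugggggca
miR-181a-1-3p: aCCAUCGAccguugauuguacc
miR-487b-3p: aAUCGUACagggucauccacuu
miR-140-5p: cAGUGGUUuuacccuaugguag
The second set holds miRNAs that were lower on both clozapine arrays, among them both arms of miR-505. It also holds miR-106b-5p, the second arm of miR-106b, whose groups overlapped (difference 0.40).
miR-505-3p: gUCAACACuugcugguuucc
miR-505-5p: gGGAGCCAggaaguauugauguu
miR-106b-3p: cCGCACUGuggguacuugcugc
miR-106b-5p: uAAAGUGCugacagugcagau
miR-326-3p: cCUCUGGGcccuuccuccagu
miR-99b-5p: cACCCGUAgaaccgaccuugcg
The third set shows families that share a seed, 3 of let-7, 4 with the miR-34 seed and 2 of miR-29.
let-7e-5p: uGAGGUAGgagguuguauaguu
let-7d-5p: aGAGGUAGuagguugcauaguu
let-7i-5p: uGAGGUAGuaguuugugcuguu
miR-34a-5p: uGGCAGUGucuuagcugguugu
miR-34b-5p: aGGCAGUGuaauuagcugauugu
miR-34c-5p: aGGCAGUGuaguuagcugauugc
miR-449a-5p: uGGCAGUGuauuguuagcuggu
miR-29a-3p: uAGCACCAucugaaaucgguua
miR-29b-3p: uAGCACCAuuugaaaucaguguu

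Before the results, 1 fact on the arrays bears on all of them. The labelling spike-in, an RNA added before labelling, read 3.12 and 3.02 (log10) on control replicates 1 and 2 and 3.01 and 2.88 on clozapine replicates 1 and 2. The array's 75th percentile, to which the values below are scaled, ran in the same order at 1042, 955, 796 and 689. So did the number of miRNAs called detected, with 249, 242, 233 and 203. All 8 arrays sat on 1 slide with 1 column for each treatment, so column and treatment cannot be told apart.

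Clozapine against untreated cells asks which miRNAs differ after days of exposure to the drug. The oligodendrocyte miRNA miR-338-3p and the stem cell miRNA miR-290 read about 2-fold higher with clozapine (2.12-fold and 1.99-fold) on arrays that stood above both controls. The let-7 and miR-99b group read lower, as did both arms of miR-505, which lay near the floor of the measurement. None of these differences passed the test. limma with Benjamini-Hochberg adjustment called 0 of 243 miRNAs at the 0.05 threshold (0%, lowest adjusted p 0.27), while 36 (14.8%) had an unadjusted p below 0.05. Of these 36, 33 (13.6% of the 243) were lower with clozapine and 3 (1.23%) higher. With 2 arrays a group an exact permutation cannot give p below 0.333. Differences below are therefore given as values, on the log2 scale, as the clozapine mean minus the control mean. A level is the log2 of a miRNA's signal over its array's 75th percentile, so that 0 is that percentile. The lowest level used was a floor of -6.22. A level compares 1 miRNA between arrays and not one miRNA with another.

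Over the 238 members the differences leaned below 0, with a median of -0.19. There were 160 members lower, 75 higher and 3 at 0, against 66.3% lower among all miRNAs tested. All 238 were detected on both control arrays, but 31 on only 1 clozapine array and 8 on neither. Those members entered through the controls alone and none through clozapine alone, a choice that favours values below 0. Among the 199 members detected on all 4 arrays the median was -0.16. The lean did not rest on 1 control array, since the median was -0.21 against control replicate 1 alone and -0.18 against control replicate 2 alone. Without clozapine replicate 1 the median was -0.26, and without clozapine replicate 2 it was -0.09. With the arrays scaled to the labelling spike-in the median was -0.17. It was nearer 0 with quantile normalization (-0.09), with cyclic loess (-0.08) and with the floor at the 20th percentile (-0.04). It turned above 0 with normexp background correction (0.74) and with the percentile taken over all probes (0.43). Of all probes, 24.4% (control replicate 2) to 18.9% (clozapine replicate 2) were above background on the 4 arrays. A 75th percentile over all probes thus falls among probes not above background, and it moves all miRNAs of an array together. With normexp a constant 50 was added before scaling, which lifts dim miRNAs most on arrays with a low percentile. How much of the change this made was not tested.

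The arrays of both groups did not overlap for 95 of the 243 miRNAs tested (39.1%), all of them members. Clozapine was the lower group for 82 (33.7%) and the higher for 13 (5.35%). If the groups did not differ, 2 against 2 arrays would fail to overlap with a probability of 0.333. Non-overlap of a miRNA is therefore a weak sign by itself. Of the 82, 58 stood in the order control replicate 1, control replicate 2, clozapine replicate 1, clozapine replicate 2 from high to low, which is also the order of the labelling spike-in. Only 6 of the 238 members stood in the opposite order. Differences of over 2-fold were seen for 4 members above 0 and 14 below.

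The lower values were concentrated among dim miRNAs. Among the 85 members with a mean level below -4, 68 were lower and the median was -0.43. The 57 members above a level of 0 had a median of -0.08, with 35 lower and 22 higher. Dim miRNAs could be members through the control arrays alone (31 with 1 clozapine call and 8 with none), and none was through clozapine alone. That choice favours lower values near the floor, and its part in the concentration was not tested. Of the 238 members, 174 had at least 1 probe with most of its spots above background on all 4 arrays. Their median difference was -0.11, against -0.43 for the 64 without such a probe. The 14 members over 2-fold lower included 3 with such a probe, and the 4 over 2-fold higher also included 3.

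**Figure D1:**
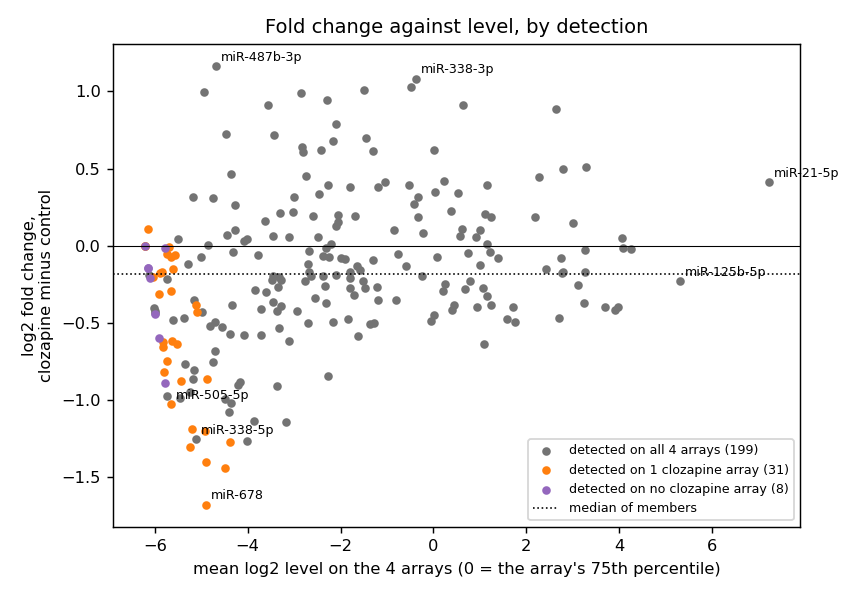
Difference between clozapine and control (log2, vertical axis) against the mean log2 level on the 4 arrays (horizontal axis), 1 point for each of the 238 members, coloured by the number of clozapine arrays with a detection call. Points left of a level of -4 lie mostly below 0 (median -0.43), and the miRNAs with no detection call on a clozapine array all sit near the floor; the dotted line is the median of all members, -0.19.

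miR-338-3p had the largest difference above 0 among members that lay above the floor on every array. This miRNA of oligodendrocytes, encoded within the span of the kinase gene Aatk (GRCr8 chr10:105796345-105796367, minus strand), promotes their maturation. Its level was -1.31 and -0.53 on the control arrays and 0.14 and 0.19 on the clozapine arrays. Both clozapine arrays stood above both controls, and they differed from each other far less than the controls did. The difference was 1.08 (SE 0.36, 2.12-fold, adjusted p = 0.33 by limma), or 1.47 against control replicate 1 and 0.70 against control replicate 2. Both of its probes gave nearly the same value, 1.06 and 1.11. The difference stayed above 0 in all 14 settings of scaling, background, probe summary, floor and left-out array, from 0.65 to 1.73.

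The other arm of the hairpin, miR-338-5p, lay near the floor and on the other side of 0. It read -4.04 and -4.95 on the control arrays and -5.28 and -6.22, the floor, on the clozapine arrays. The groups did not overlap, and the difference was -1.26 (SE 0.61, adjusted p = 0.46 by limma). None of its probes had most spots above background on all 4 arrays, and the value turned to 1.003 with normexp. The second of the oligodendrocyte markers, miR-219-5p, overlapped between groups (difference 0.10, SE 0.73).

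miR-290 belongs to a cluster known from embryonic stem cells, of which it was the only member out of 9 listed here. Its level was -3.85 and -2.87 in controls and -2.39 and -2.34 with clozapine (chr1:74880106-74880123, minus strand). The clozapine arrays nearly coincided and lay above both controls. The difference was 0.99 (SE 0.34, adjusted p = 0.33 by limma), 1.48 against control replicate 1 and 0.50 against control replicate 2. Its 2 probes gave 0.96 and 1.02.

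miR-140-5p, encoded within Wwp2 and known from cartilage (chr19:52375314-52375335, plus strand), was the 1 of the 10 miRNAs named as higher that lay farther above control replicate 2 than above control replicate 1. It read -0.17 and -0.42 in controls and 0.53 and 0.12 with clozapine. No array of one group reached into the other. The difference was 0.62 (SE 0.38, adjusted p = 0.57 by limma), 0.49 against control replicate 1 and 0.75 against control replicate 2. With its 3p partner at 0.34, where the groups overlapped, the hairpin had both arms above 0.

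Among the other miRNAs named as higher, the distance to control replicate 2 was small. miR-181a-1-3p, usually the minor arm of its hairpin, read -3.45 and -2.84 against -2.44 and -2.57 with clozapine, 0.94 above control replicate 1 and 0.33 above control replicate 2. miR-487b-3p, from the Dlk1-Dio3 imprinted region, was at the floor on control replicate 1 and at -4.32 on control replicate 2, against -4.09 and -4.12 with clozapine. Its difference of 1.17 (SE 0.60) was thus 2.11 against the first control array and 0.22 against the second. miR-21-3p, usually the minor arm of miR-21, read -2.82 and -1.16 against -1.11 and -0.85. These 3 miRNAs had groups that did not overlap, with controls that lay farther from each other than control replicate 2 lay from clozapine.

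miR-130a-3p (difference 0.44), miR-542-3p (0.38), miR-101a-3p (0.94) and miR-551b-5p (0.91) complete the 10 higher miRNAs named by smallest p. miR-542-3p, from the X-linked cluster of miR-322 and miR-503, did not overlap, at -1.65 and -1.12 against -1.08 and -0.94. The other 3 overlapped. miR-101a-3p, known for repressing the chromatin gene Ezh2, read -3.63 and -1.91 in controls and -2.29 and -1.36 with clozapine, so control replicate 2 stood above clozapine replicate 1. Against control replicate 2 alone these 4 miRNAs were at 0.01 to 0.12.

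**Figure D2:**
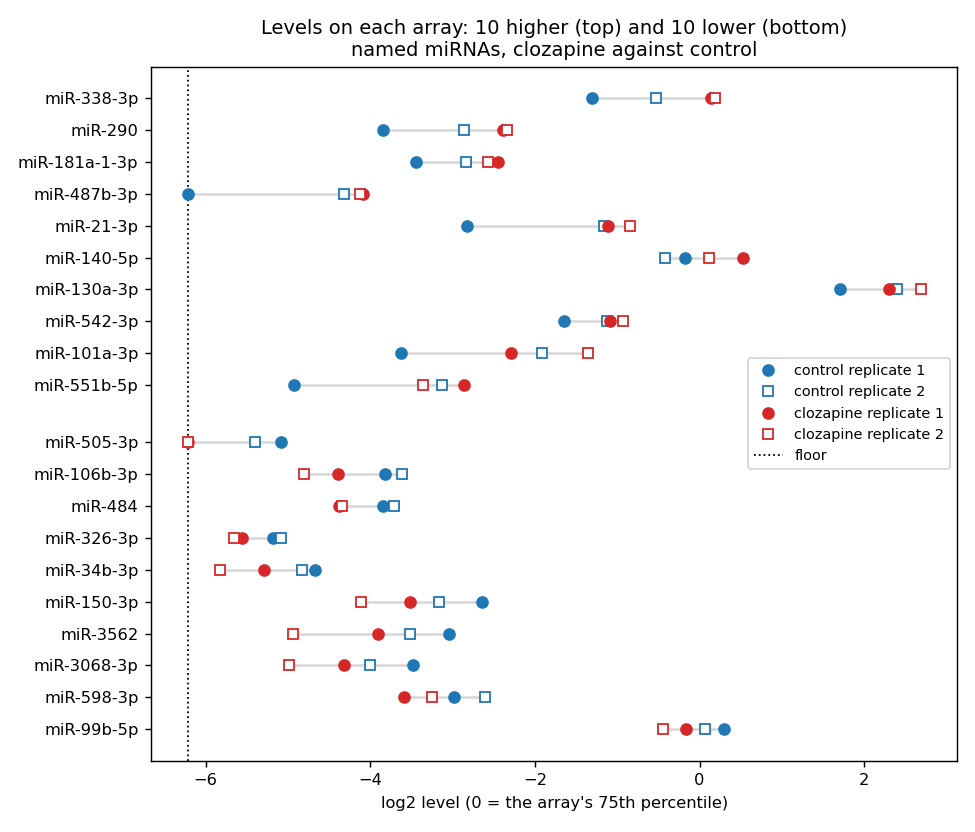
Log2 level of 20 named miRNAs on each array (horizontal axis, 0 is the array's 75th percentile), with control arrays in blue, clozapine arrays in red, replicate 1 as filled circles and replicate 2 as open squares. For miR-338-3p both clozapine arrays stand close together above both controls, for miR-487b-3p and miR-551b-5p control replicate 1 lies apart on the left, and for all 10 lower miRNAs the clozapine arrays lie left of both controls.

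Many other higher values also rested on control replicate 1 when the control arrays were taken singly. Against control replicate 1 alone, 21 members were over 1 higher with clozapine, but 0 of these were over 1 higher against control replicate 2 and 19 were under 0.25 above it. The replicate number is also the row of the slide, and taken row by row 19 of the 21 were higher in both rows. Over the members 47 were higher in both rows, 127 lower in both and 56 differed in direction, with medians of -0.14 in row 1 and -0.25 in row 2. Of the 75 members higher in the mean, 34 lay at or below control replicate 2 and 8 at or below control replicate 1. On the lower side the control arrays gave closer values. Of the 22 members over 1 lower than control replicate 1, 20 were also over 0.5 lower than control replicate 2. Only 6 were over 1 lower than both. In all, the clozapine mean of 117 members lay below both control arrays, of 33 above both and of 82 between them.

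miR-29b-3p, known for repressing collagen genes, and miR-301a-3p show the pattern at a high level. miR-29b-3p read 1.34 and 3.08 in controls and 2.50 and 3.69 with clozapine. It was therefore 1.76 above control replicate 1 and 0.02 above control replicate 2, and the groups overlapped, while by row it was 1.16 and 0.62 higher. miR-301a-3p read -1.97 and -0.01 in controls and -0.47 and 0.55 with clozapine, 2.01 and 0.05 above the 2 control arrays and 1.502 and 0.56 higher by row. miR-204-5p, which restrains invasion in several tumours, ran the other way, at -0.70 against control replicate 1 and 1.33 against control replicate 2. It read 0.54 and -1.50 in controls and 0.44 and -0.77 with clozapine.

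**Figure D3:**
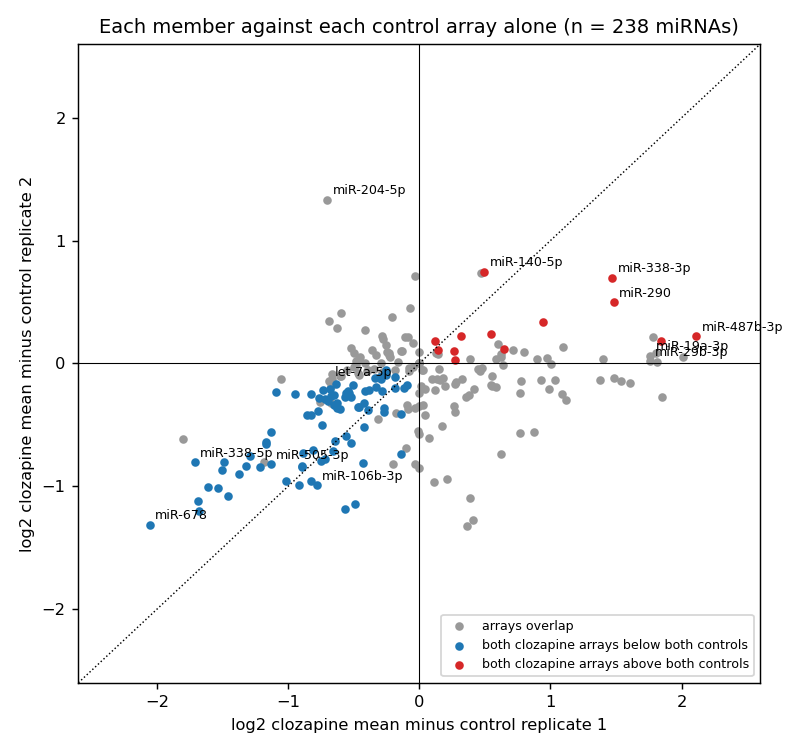
Clozapine mean minus control replicate 1 (horizontal axis, log2) against clozapine mean minus control replicate 2 (vertical axis, log2) for the 238 members, with red points where both clozapine arrays lay above both controls and blue points where both lay below. Blue points (82) follow the diagonal below 0, while the points at the right edge, such as miR-29b-3p, lie near 0 on the vertical axis; miR-338-3p, miR-290 and miR-140-5p are the red points farthest above 0 on that axis.

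On the lower side both arms of the miR-505 hairpin were low on both clozapine arrays. miR-505-3p read -5.09 and -5.40 in controls and the floor on each clozapine array, with a difference of -0.98 (SE 0.16, adjusted p = 0.27 by limma). miR-505-5p read -4.96 and -5.33 in controls and -6.13 and the floor with clozapine, a difference of -1.03. The arms did not overlap between groups, and each was lower against either control array, by at least 0.82. Both sit close to the floor, which hides spread, and miR-505-3p turned to 1.09 with normexp.

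miR-106b-3p, usually the minor arm of a hairpin within the replication gene Mcm7, read -3.82 and -3.61 in controls and -4.39 and -4.81 with clozapine. The groups were apart, and the difference was -0.89 (SE 0.21, adjusted p = 0.27 by limma), -0.78 against control replicate 1 and -0.99 against control replicate 2. The size depends on the probe, since the 1 probe above background on all arrays gave -0.44. The major arm, miR-106b-5p, overlapped and was at 0.40. The neighbours in the Mcm7 hairpin cluster, miR-93-5p and miR-25-3p, were bright and lower on both clozapine arrays. miR-93-5p read 1.25 and 1.38 in controls and 0.99 and 0.99 with clozapine (difference -0.33, SE 0.12). miR-25-3p read 1.59 and 1.30 against 1.07 and 1.03 (difference -0.39, SE 0.14).

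miR-484, miR-598-3p and miR-326-3p, the last within the arrestin gene Arrb1, were also among the lower. The arrays of a group agreed closely for miR-484 and miR-326-3p and less so for miR-598-3p. miR-484 read -3.84 and -3.71 in controls and -4.38 and -4.34 with clozapine (difference -0.58, SE 0.14). miR-598-3p read -2.99 and -2.61 against -3.59 and -3.24 (difference -0.62, SE 0.21). miR-326-3p read -5.18 and -5.08 against -5.55 and -5.65 (difference -0.47, SE 0.13). Groups did not overlap for these 3, and each was lower than either control alone by 0.42 or more. Each turned above 0 with the percentile over all probes and with normexp.

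The remaining lower miRNAs were miR-34b-3p (difference -0.81), miR-150-3p (-0.91), miR-3562 (-1.14), miR-3068-3p (-0.91) and miR-99b-5p. For the first 4 the clozapine arrays lay below both controls, and clozapine replicate 2 was the lowest array. miR-3562 read -3.05 and -3.52 in controls and -3.90 and -4.94 with clozapine. miR-99b-5p, whose family targets the kinase gene Mtor, gave the brightest signal of the 10 lower miRNAs. It read 0.30 and 0.07 in controls and -0.17 and -0.44 with clozapine, a difference of -0.49 (SE 0.16, adjusted p = 0.33 by limma), with probes at -0.53 and -0.47.

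A further 4 dim miRNAs read over 2-fold lower, but none had a probe with most spots above background on all 4 arrays and each was detected on 1 clozapine array. miR-678 read -3.69 and -4.43 in controls and -5.27 and the floor with clozapine, a difference of -1.68 (SE 0.64). miR-743a-3p (-1.44), miR-133b-3p (-1.40) and miR-3561-5p (-1.31) followed. Of the 14 members over 2-fold lower, 13 stood in the order of the labelling spike-in given above.

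Every member had been detected on both control arrays. With clozapine 199 were detected on both arrays, 31 on 1 and 8 on neither, and 0 miRNAs were detected on both clozapine arrays without being detected on both controls. The smaller number of detection calls goes with the lower spike-in and 75th percentile of the clozapine arrays, and their part in it was not tested. The 8 without a call were miR-1306-5p, miR-132-3p, miR-135b-3p, miR-150-5p, miR-223-3p, miR-351-3p, miR-384-3p and miR-423-3p. With levels cut at the floor, miR-351-3p read 1.85-fold lower (controls -5.39 and -5.26), miR-150-5p, an arm of a lymphocyte hairpin, 1.51-fold and miR-384-3p 1.36-fold. Each value compares the mean control level with the floor, or with the clozapine signal where that was higher. The 8 were picked for calls on both controls and on no clozapine array, which favours a lower reading. With normexp the differences of these 3 were above 0, at 1.03, 1.02 and 1.17. miR-223-3p, a miRNA of myeloid cells, lost its calls while its level was nearly equal, -5.66 and -5.90 in controls and -5.66 and -5.93 with clozapine. miR-135b-3p was at the floor on all 4 arrays, and miR-132-3p, induced by CREB, lay at -6.03 and -6.11 on the controls.

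miR-21-5p gave the brightest signal on every array, at 6.72 and 7.32 in controls and 7.22 and 7.64 with clozapine. The groups overlapped, and the difference was 0.41 (SE 0.28), or 0.11 against control replicate 2. miR-125b-5p (-0.23), miR-23a-3p (-0.02), miR-24-3p (-0.01), miR-29a-3p (0.05) and miR-16-5p (-0.17) stayed within 0.25 of 0. miR-27a-3p (0.51) was 0.97 above control replicate 1 and 0.05 above control replicate 2. The remaining 3 of the 10 brightest were let-7a-5p (-0.42), let-7f-5p (-0.40) and let-7c-5p (-0.40), all lower, and only let-7f-5p had groups that did not overlap.

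The let-7 family had 8 of 8 measured members below 0, with a median of -0.41 against -0.19 over all members, where 160 of 238 were below 0. let-7e-5p read 1.99 and 1.68 in controls and 1.46 and 1.26 with clozapine (difference -0.48, SE 0.19). let-7d-5p read 3.15 and 2.74 against 2.61 and 2.34 (difference -0.47, SE 0.19). For these 2, let-7f-5p and miR-98-5p the groups did not overlap. For let-7a-5p, at 4.38 and 3.84 against 3.86 and 3.53, clozapine replicate 1 lay between the controls, and let-7i-5p (-0.18) and the other members overlapped too. Most of the family's distance came from control replicate 1, with medians of -0.65 against it and -0.16 against control replicate 2, where all members had -0.18. The family's median turned to 0.24 with the percentile over all probes, where that of all members was 0.43.

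The miR-99b, let-7e and miR-125a hairpins lie within 1 cluster on chr1:67350070-67350748 in the span of Spaca6. All 5 of its measured arms were lower, from -0.26 to -0.49 with a median of -0.45. With the percentile over all probes all 5 turned above 0, from 0.16 for miR-99b-5p to 0.38 for miR-125a-3p, where the median of all members was 0.43. miR-125a-5p, a regulator of differentiation, read 0.45 and 0.05 in controls and -0.04 and -0.37 with clozapine. It shares its seed with miR-125b-5p (-0.23) and with miR-351-5p (-0.995), and all 3 were below 0. In the miR-125, miR-99 and miR-100 list 5 of 5 members were lower, with a median of -0.36, or -0.60 and -0.10 against the control arrays in turn.

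The miR-17 to miR-92a cluster, known to favour proliferation, and its paralogues went both ways. The 5 members with the miR-17 seed were themselves split, 3 higher and 2 lower. Both members with the miR-25 and miR-92a seed were lower and did not overlap, and miR-92a-3p read 1.29 and 0.97 in controls against 0.76 and 0.70 with clozapine. Both miR-19 members were higher, miR-19a-3p at 0.91 and miR-19b-3p at 0.50, with 0.06 and -0.01 against control replicate 2 alone. Of the 10 members 6 were higher and 4 lower, with a median of 0.18, or 0.55 and -0.21 against the control arrays in turn. The miR-221 and miR-222 cluster, which represses the cell cycle inhibitor p27, had miR-221-3p at 3.27 and 3.21 in controls and 2.99 and 2.98 with clozapine. miR-222-3p (difference -0.30) and miR-221-5p (-0.62) did not overlap either, while miR-222-5p was at 0.70 and overlapped.

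The families with the miR-34 seed, miR-29 and miR-30 lay farther from control replicate 1 than from control replicate 2. So did the let-7 family below 0, with medians of -0.65 and -0.16. All 4 members with the miR-34 seed, which p53 induces in part, were above 0, from 0.06 to 0.41. miR-449a-5p was the 1 whose groups did not overlap, at -2.62 and -2.32 against -2.09 and -2.06. miR-34a-5p, miR-34b-5p and miR-34c-5p were below 0 against control replicate 2 alone, at -0.15, -0.30 and -0.21. The p53-linked list as a whole had 4 of 6 members higher, a median of 0.23, or 0.41 and -0.18 against the control arrays in turn, and miR-143-3p at -0.77.

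The miR-29 family had 3 of 3 above 0, but medians of 0.33 and -0.13 against the control arrays in turn. The miR-30 family had 4 of 5 above 0 with a median of 0.18, and it was above both controls, at 0.26 and 0.13. miR-30b-5p and miR-30d-5p did not overlap between groups, and miR-30e-5p (0.62) was the highest. Without scaling the medians of these 2 families were -0.33 and -0.25, where the median over all members was -0.56.

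The miR-181 family (0 of 4 higher, median -0.07), the miR-15 and miR-16 seed family with its neighbours (3 of 6 higher, median 0.00) and the miR-23, miR-27 and miR-24 clusters (3 of 6 higher, median 0.07) lay near 0. miR-27b-3p did not overlap, at 2.97 and 2.90 against 3.08 and 3.08. miR-33-5p, which lies within a sterol-regulator gene, was the 1 member of the sterol-linked list. It read the floor and -4.65 in controls and -5.22 and -3.65 with clozapine, overlapping (difference 0.999, SE 0.91). Of the CREB-linked pair, miR-212-3p was at 0.35 and overlapped. Of 31 listed miRNAs of the Dlk1-Dio3 locus 3 were members, among them miR-494-3p (0.11) and miR-370-3p (-0.39), both overlapping. Of the miR-297 and miR-466 repeat family, miR-466b-5p was at -0.01.

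**Figure D4:**
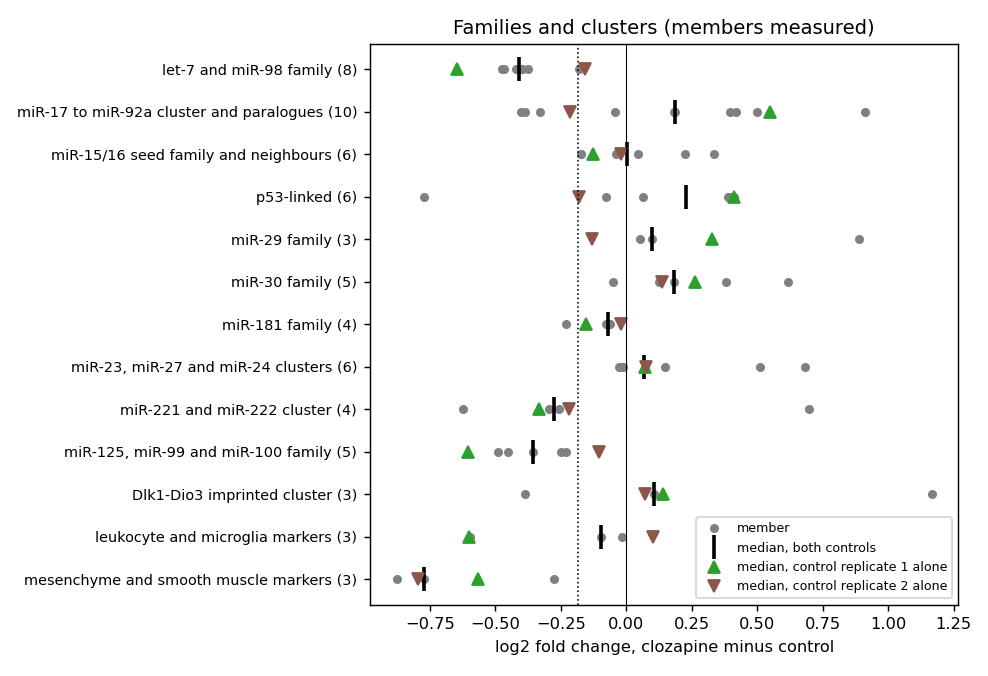
Differences between clozapine and control (log2, horizontal axis) of the members of each list with at least 3 measured (grey points), with the median (black bar) and the medians against control replicate 1 (green) and control replicate 2 (brown) alone; the dotted line is the median of all members, -0.19. The let-7 points all lie below 0 with medians of -0.65 and -0.16 against the control arrays in turn, and the miR-17 list spans both sides.

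Over all families, 27 seeds were shared by 2 or more members, 75 members in all. In 15 of these groups all members were lower, in 6 none was lower and in 6 there were both directions. In the X-linked cluster of miR-322, miR-351, miR-503 and miR-542, which crosses several seeds, 4 arms were higher and 4 lower, from miR-351-5p (-0.995) to miR-542-3p (0.38).

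Both arms of a hairpin were members for 49 hairpins. They lay on the same side of 0 in 28, both lower in 20 and both higher in 8, and on opposite sides in 18. The remaining 3 had an arm at 0. After miR-338 the widest gap was in miR-106b, followed by miR-34b, whose brighter 5p arm was at 0.41 and whose dim 3p arm was at -0.81. miR-34a showed the same split, with miR-34a-5p at 0.06 and miR-34a-3p at -0.86. Against control replicate 2 alone 7 hairpins had opposed arms, and only 2 of these were among the 18. There miR-34a-5p was at -0.15 and miR-34a-3p at -0.84, miR-106b-5p was at -0.14 and miR-34b-5p at -0.30, each on the side of its 3p arm (-0.99 and -0.73), and miR-222-5p was at -0.14 and miR-222-3p at -0.21. By slide row miR-106b stayed opposed, with the 5p arm at 0.66 and 0.13 and the 3p arm at -0.57 and -1.20. In 11 of the 18 opposed hairpins the dimmer arm was the lower one, and in 7 it was the higher, among them miR-181a-1 and miR-222. In miR-505 and miR-351 both arms lay about 1 below 0.

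**Figure D5:**
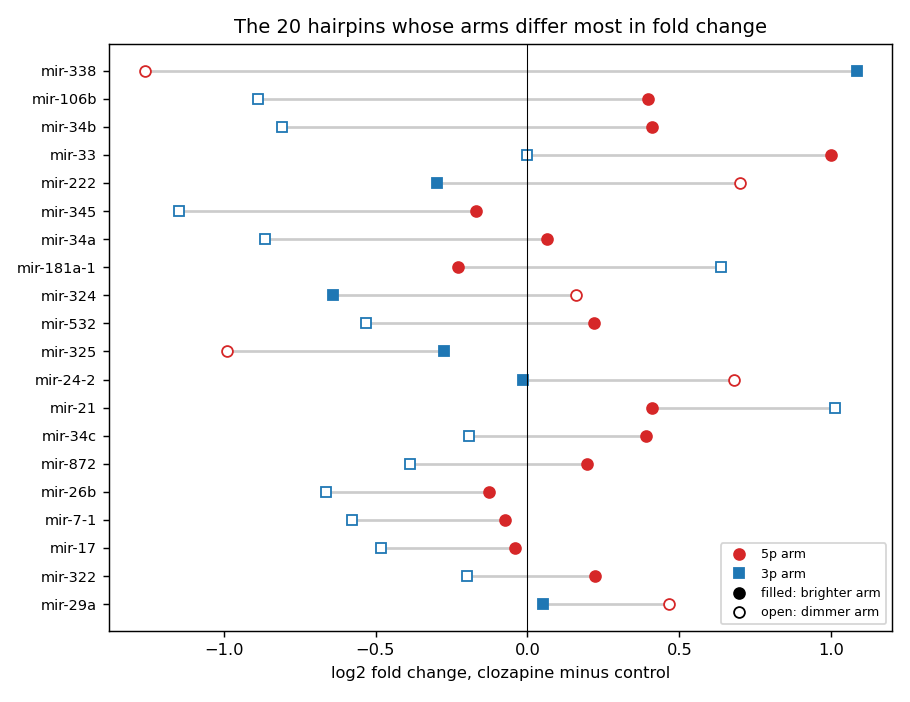
Difference between clozapine and control (log2, horizontal axis) of the 5p arm (circle) and 3p arm (square) of the 20 hairpins with the widest gap, with the brighter arm filled. In miR-338 the bright 3p arm is at 1.08 and the dim 5p arm at -1.26; in miR-106b, miR-34b and miR-34a the open 3p arm lies left of 0 and the filled 5p arm right of it.

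The probes of a miRNA, which share RNA and array and are not replicates, gave close values. Of 137 members with 2 or more probes above background on the 4 arrays, 130 had all probes on 1 side of 0, 60 higher and 70 lower. The median range between a miRNA's probes was 0.04, far below the median SE of 0.29 between arrays.

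The base content of the miRNA went weakly with the difference. Over 209 members with a sequence, Pearson's r of the GC share with the difference was -0.26, and over the 89 above a level of -2 it was -0.10. miRNAs with more GC were also dimmer (r = -0.30 with the mean level), and the points share the 4 arrays. By array the r was -0.40 for clozapine replicate 2 minus control replicate 2 and -0.09 for clozapine replicate 1 minus control replicate 1. The 64 members with over 50% GC had a median difference of -0.28 and the 38 with up to 40% one of -0.10.

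Markers of other cells were mostly undetected. The neuronal miR-124-3p, the erythrocyte miR-451-5p and miR-144-3p and the 5 listed miR-200 family miRNAs of epithelium were detected on 0 of the 4 arrays. The leukocyte list had 3 members of 5 on the array, between -0.60 for miR-150-5p and -0.02 for miR-223-3p, with miR-146a-5p at -0.09. The mesenchyme list had 3 of 4, all lower and not overlapping, with a median of -0.77, where 66.3% of all miRNAs tested were lower and 33.7% were lower without overlap. miR-199a-3p was bright, at 1.07 and 1.34 against 0.85 and 1.01, and miR-143-3p and miR-214-3p were dim. miR-214-3p was detected on 1 clozapine array and was a member through the controls alone, a choice that favours a lower value. miR-145-5p was detected on 0 arrays. The summed linear level of the 3 mesenchyme members was 2.16 and 2.61 in controls and 1.84 and 2.06 with clozapine. Nearly all of that sum was the signal of miR-199a-3p. The part of the sum in other differences was not tested. The endothelial miR-126a-3p (-0.30) and the muscle miR-206-3p (-1.21) overlapped. Fewer cells of a type and less of a miRNA per cell cannot be told apart in such bulk RNA.

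Clozapine was also set against the 2 other drugs, at unequal doses. limma called 0 of 243 miRNAs (0%) against haloperidol and 0 (0%) against risperidone, and every adjusted p was 1. Unadjusted p-values below 0.05 numbered 3 (1.23%) and 4 (1.65%). The 3 against haloperidol came from the miR-34a and miR-34b hairpins. miR-34a-5p read 0.57 and 0.63 with clozapine and 1.29 and 1.14 with haloperidol, a difference of -0.61 (SE 0.21). miR-34a-3p read -5.26 and -5.94 against -4.22 and -4.68, a difference of -1.15 (SE 0.39). miR-34b-3p read -5.29 and -5.82 against -5.08 and -4.64, a difference of -0.70 (SE 0.24). In all 3 both clozapine arrays lay below both haloperidol arrays, and the adjusted p was 1 by limma.

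Next in that ranking came miR-326-3p (-0.30) and miR-181a-1-3p, which read -2.44 and -2.57 with clozapine against -3.14 and -2.88 with haloperidol (difference 0.50). Against risperidone the first were miR-188-5p (-0.85, SE 0.25), miR-30a-3p (0.46, SE 0.16), miR-326-3p (-0.36, SE 0.13), miR-30e-3p (0.36, SE 0.14) and miR-3546 (-0.43, SE 0.18). miR-326-3p, at -5.55 and -5.65 with clozapine, was lower than on both risperidone arrays, at -5.23 and -5.25. For miR-338-3p and miR-290, which led against control, the clozapine arrays did not stand above both arrays of either other drug. miR-338-3p read 0.32 and -0.12 with haloperidol and 0.53 and -0.20 with risperidone, which spans the clozapine values. miR-290 read -1.76 and -2.12 with haloperidol and -1.53 and -1.63 with risperidone, all above its clozapine levels of -2.39 and -2.34. The let-7 members other than miR-98-5p, which were -0.48 to -0.18 against control, were also near the other drugs. Clozapine minus haloperidol ran from -0.15 (let-7i-5p) to -0.01 (let-7c-5p). Clozapine minus risperidone ran from -0.20 (let-7b-5p) to 0.02 (let-7f-5p). The lower let-7 values against control were thus not particular to clozapine. The GC share went with the difference from risperidone at r = -0.51 over 209 members, as 0.05 for the replicate 1 arrays and -0.55 for the replicate 2 arrays, where risperidone had the lowest spike-in of the series, 2.73.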

How the data were processed

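The authors deposited, per the file headers, spot intensity and gene-level intensity, corrected for background, from Agilent Feature Extraction 10.7.3.1, linear and not scaled between arrays, with flags of unit other (0 or 1). Spots flagged as outliers were dropped, probes averaged and summed per miRNA. Each array was scaled to its own 75th percentile among 291 probes above background on all 8 arrays; a floor was set at the 5th percentile of detected values after scaling, and log2 taken. miRNAs detected on both arrays of any group (243) were fitted over 8 arrays with limma 3.58.1 (R 4.3.3, lmFit and eBayes, two-sided, no block, 5.43 total degrees of freedom), tested on simulated data, with Benjamini-Hochberg adjustment at 0.05. Named are the 10 smallest p in each direction among members detected on all 4 arrays, members detected in 1 group alone, the 10 brightest, list members, and the 5 smallest p against each other drug; others were chosen after their values were seen. Members and lists were chosen with earlier results of these data known. Alternatives changed scaling, background, probe summary, filter, floor, arrays, block and variance trend; normexp (offset 50) used spot medians. The number of arrays limits the precision.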

Additional observations from a re-analysis of the deposited data

How the results depend on the processing

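limma called 0 miRNAs for clozapine against control in every setting run except 2. Without control replicate 2 it called 7 (miR-150-5p, miR-21-3p, miR-222-5p, miR-26b-3p, miR-290, miR-487b-3p and miR-505-3p), and without any other array 0, so these calls rest on control replicate 1 as the only control. With the replicate number as a block it called 2, miR-338-5p (-1.26, adjusted p 0.0324) and miR-3561-5p (-1.31, adjusted p 0.0481), and gave 66 at an unadjusted p under 0.05. The replicate number is the slide row, the labels do not say that it pairs cultures, and over members the difference between replicates 1 and 2 in controls and with clozapine had r = 0.72. Leaving out 1 array gave 8 (without clozapine replicate 2) to 65 (without control replicate 2) at an unadjusted p under 0.05, with 13 without control replicate 1 and 21 without either haloperidol array. That number, 36 in the text, was 11 with the percentile over all probes, 21 with quantile normalization, 6 without scaling, 11 with cyclic loess, 12 with the labelling spike-in, 18 with normexp, 17 among miRNAs detected on all 4 arrays and 17 with the 4 clozapine and control arrays alone. The median over members was 0.43 with the percentile over all probes, -0.56 without scaling and 0.74 with normexp, and 154 and 162 members did not overlap with the last 2. For clozapine against the other drugs limma called 0 in every setting. Over 14 settings 18 members kept a difference above 0 and 0 members one below 0; without normexp and the percentile over all probes 18 and 82 did. Of the 238 members 126 turned sign with normexp and 114 with the percentile over all probes. Reversals are listed for the 28 miRNAs followed, the 10 higher and 10 lower by smallest p and the 8 without a clozapine call. With normexp 16 of them turned: miR-505-3p 1.09, miR-106b-3p 0.96, miR-484 0.80, miR-326-3p 1.04, miR-34b-3p 0.95, miR-150-3p 0.47, miR-3562 0.55, miR-3068-3p 0.86, miR-598-3p 0.54, miR-1306-5p 1.07, miR-132-3p 1.03, miR-150-5p 1.02, miR-223-3p 1.13, miR-351-3p 1.03, miR-384-3p 1.17 and miR-423-3p 1.13. With the percentile over all probes, of the 28, miR-484 was 0.0636, miR-326-3p 0.177, miR-598-3p 0.0267, miR-99b-5p 0.16 and miR-223-3p 0.63. miR-326-3p was 0.0682 with quantile normalization and miR-542-3p -0.0502 without scaling. miR-223-3p was 0.14 with cyclic loess, and it ranged from -0.151 to 0.119 when 1 array was left out, above 0 without control replicate 1 (0.10) or clozapine replicate 2. The limits of normexp and of the percentile over all probes are given above, and the sign of a dim miRNA under them says little of its level. The cause of these changes was not tested.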
